A study of Mus musculus with 60 samples.

Results

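Lithium was compared with vehicle in the prefrontal cortex of wild-type (WT) mice on postnatal day 25, in 20 of the 60 RNA-seq libraries of a study of Trip12 heterozygous and WT mice. The libraries were taken by their genotype and treatment labels. They comprised 10 from lithium-treated and 10 from vehicle-treated WT mice of the strain C57BL/6J, with 5 females and 5 males in each. Treatment ran for 3 weeks, from postnatal day 3 to day 24, and reached the pups through the milk of the dam. The same contrast in mice labelled heterozygous for Trip12 (HT), an E3 ubiquitin ligase of the HECT family, rests on 20 other libraries of the same strain, age and design and is given beside the WT values. The 10 WT fluoxetine libraries, from pups given that serotonin reuptake inhibitor on the same schedule, enter 1 direct test against lithium. The labels used here give neither the dose, nor the Trip12 allele, nor which pups shared a dam, so a litter and a treatment cannot be told apart, and the p-values measure the spread between these libraries.

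Lithium is a monovalent cation used as a mood stabilizer. It competes with magnesium at several enzymes, among them the kinases GSK3-alpha and GSK3-beta, the phosphatases that recycle inositol phosphates (Impa1, Impa2, Inpp1) and the related phosphatase Bpnt1. Inhibition of GSK3 is known to spare beta-catenin protein from degradation and so to raise transcription of Wnt target genes, and depletion of inositol is an older account of the drug's action. Lithium is also known to disturb water balance through the kidney and the function of the thyroid, and BDNF, a growth factor of neurons, is among the transcripts most often studied with it.

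The WT lithium and vehicle libraries held 25.14 to 35.86 mega-reads (M) recovered from the table. All values below are read counts divided by a size factor for the library (normalized read counts). The 5 lithium females were the deepest, with 33.92 to 35.86 M against 28.1 to 29.3 M in vehicle females (exact two-sided permutation test, p = 0.007937, the smallest that 5 against 5 can give; 0.1667 after Benjamini-Hochberg adjustment over 21 library measures). Lithium and vehicle males held 25.14 to 32.37 and 26.86 to 30.27 M. The 8 excitatory neuron markers summed to between 123537 and 169343 normalized reads in lithium libraries and between 132005 and 176857 in vehicle libraries. None was at 0. These sums cannot tell prefrontal cortex from other brain regions that hold such neurons. Markers of neighbouring tissue varied between dissections. The 14 olfactory bulb markers summed to between 6917 and 29749.5 reads under lithium and between 7432 and 27174 under vehicle. Their mean log2 level, centred per gene, was 0.92 in lithium females against -0.12 in vehicle females, but -1.31 in lithium males against 0.51 in vehicle males. Of 14 bulb markers and 12 markers of myelinating oligodendrocytes, none passed the test between treatments over both sexes, with median log2 fold changes of -0.46 and -0.28. Lithium female replicate 5 and lithium male replicate 4 stood apart from the other WT libraries, the first by its distance from its group mean (root mean square deviation 0.27 on the log2 scale) and the second by its median correlation with the others (0.979). Without both, 626 genes were called in the comparison below in place of 833.

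**Figure D1:**
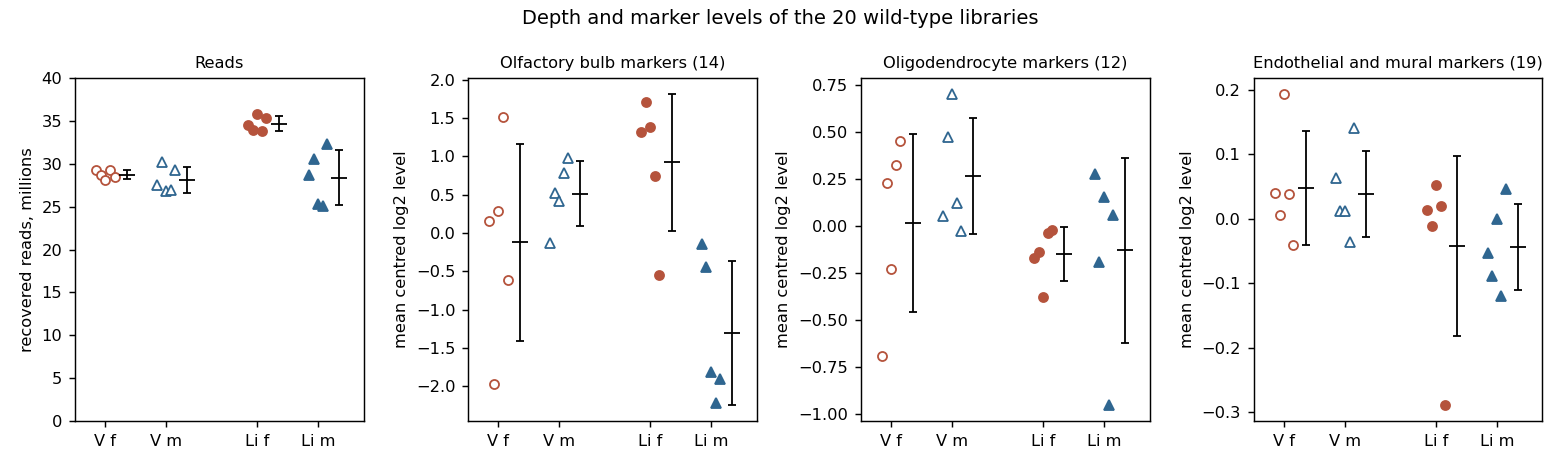
Recovered reads in mega-reads and the mean centred log2 level of 3 marker lists in each of the 20 WT libraries, with circles for females, triangles for males, filled symbols for lithium and bars for the group mean and SD (n = 5). Lithium females lie above all other groups in depth, and 3 lithium males and 1 vehicle female lie lowest in olfactory bulb markers.

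Lithium changed the level of 833 of 17804 genes tested, 4.68% of them, at an adjusted p under 0.05 (limma with sex as a block, two-sided, Benjamini-Hochberg adjustment). Of these, 463 rose (2.6%) and 370 fell (2.08%). The changes were small, with a median absolute log2 fold change of 0.215 among called genes against a median standard error of 0.069 over all genes. The median log2 fold change of all genes tested was -0.00061. The count lay between 564 and 906 when each of the 20 libraries was left out in turn, and was 602 with library depth as a covariate, of which 462 were among the 833. In bulk tissue, fewer cells of a type and less RNA per cell cannot be told apart, and this holds for every level below.

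The HT libraries, none of which is shared with the WT contrast, moved with the WT libraries. The labels do not say whether WT and HT pups shared dams. A litter effect common to both genotypes therefore cannot be told apart from lithium. In HT females, as in WT females, the lithium libraries were deeper without overlap, 32.09 to 35.18 M against 26.59 to 30.99 M. HT males held 26.58 to 33.47 M under lithium and 26.68 to 29.19 M under vehicle. Depth was not fitted as a covariate in HT, so its part in the response common to both genotypes was not tested. Lithium changed 1551 genes in HT (8.71%), of which 802 rose (4.5%) and 749 fell (4.21%). Of the 463 genes that rose in WT, 456 had a positive log2 fold change in HT and 265 also passed the test there, 57.2% of the WT list and 33% of the HT list. Of the 370 that fell in WT, 362 were negative in HT and 154 were called, 41.6% of the WT list and 20.6% of the HT list. No gene was called in opposite directions. The genes that rose had median log2 fold changes of 0.21 in WT and 0.21 in HT, and those that fell -0.23 and -0.18. Tested directly over 40 libraries, the response differed between the genotypes for 0 genes at an adjusted p under 0.05 by limma and by edgeR, with 905 at an unadjusted p under 0.05 and a smallest adjusted p of 0.801. Of 17 markers of striatal medium spiny neurons, 0 were called in WT, with a median log2 fold change of -0.16. In HT 9 fell and 0 rose, against 4.21% and 4.5% of all genes, with a median of -0.60. The WT minus HT difference was positive for all 17 and called for 0. The part of these markers in the comparison of genotypes was not tested. Trip12 itself lay between 5179 and 5956 normalized reads in WT lithium libraries and between 5099 and 6126 in WT vehicle libraries, a log2 fold change of -0.01 ± 0.04 (SE; adjusted p = 0.913).

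Genes known to be induced by glucocorticoid hormones through the glucocorticoid receptor gave the largest number of rises of any list. Of 29 list members tested, 14 rose and none fell, against 2.6% and 2.08% of all genes, and the median of the 29 was 0.27. Fkbp5, a co-chaperone that restrains the receptor and is a standard reporter of its activity, had the smallest p of all genes. Its normalized read count ranged from 1315 to 1795 with a median of 1516 under lithium and from 619 to 1051 with a median of 818 under vehicle (chromosome 17, 28399094 to 28517527, minus strand, GRCm38). The 10 lithium libraries all lay above the 10 vehicle libraries, a log2 fold change of 0.87 ± 0.09 (adjusted p = 2.8e-05), with 0.88 in females and 0.87 in males. In HT it was 0.66 (adjusted p = 0.00076). By sex, 1 of the 29 rose in females and 10 in males, against 0.635% and 1.31% of all genes, with medians of 0.27 and 0.28, and the difference between the sexes was called for none. Vehicle female replicates 2 and 3 lay within the lithium range for Map3k6 (172 and 137 reads), Sult1a1 (355 and 424) and Plin4 (36.0 and 36.6).

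Plin4, a coat protein of lipid droplets, was low in vehicle libraries, at 7.6 to 36.6 reads with a median of 16.6, and reached 26.7 to 67.6 with a median of 52.1 under lithium (log2 fold change 1.40 ± 0.22, adjusted p = 0.00139). Every lithium library exceeded the vehicle mean, although the ranges overlapped. Zbtb16, a transcription factor also called PLZF, ranged from 1238 to 1663 against 836 to 1281 (medians 1413 and 1002, log2 fold change 0.51, adjusted p = 0.000959). Tsc22d3, the leucine zipper protein GILZ, ranged from 1988 to 2718 against 1523 to 2322 (medians 2478 and 1764, 0.41, adjusted p = 0.0029). These 4 genes kept their call in all 20 fits that left out 1 library and under all 15 alternative settings. So did Sult1a1, a sulfotransferase (0.85), Hif3a, a member of the hypoxia-inducible factors (0.81), Map3k6, a stress kinase (0.80), Klf9, a transcription factor (0.23), and Slc2a1, the glucose transporter of endothelium and glia (0.37). Their adjusted p lay between 0.0021 and 0.012. Arrdc2 (0.44) and Lcn2 (1.30, with a median of 17.6 reads against 6.66) kept theirs in all 20 fits without 1 library, but Arrdc2 lost it with depth as a covariate (adjusted p = 0.094) and Lcn2 without both libraries that stand apart (adjusted p = 0.0598). Sdc4 (0.33, adjusted p = 0.0263) lost its call without vehicle female replicate 4 or vehicle male replicate 3 (adjusted p = 0.0509 and 0.054). The calls of Mt2 (0.32) and Sgk1 (0.26) were the least secure of the 14, lost without any 1 of 13 and of 15 libraries.

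The receptors themselves went the other way. Nr3c1, the glucocorticoid receptor, ranged from 2047 to 2681 under lithium and from 2513 to 3105 under vehicle, and fell by 0.27 on the log2 scale (SE 0.05, adjusted p = 0.00334), with -0.21 in HT (adjusted p = 0.0285). Nr3c2, the mineralocorticoid receptor, fell by 0.14 (adjusted p = 0.0156), and its call was lost with the oligodendrocyte score as a covariate (adjusted p = 0.0537). The 10 lithium libraries were below the vehicle mean for both. Per1, a clock gene that glucocorticoids also induce, ranged from 2272 to 3713 and from 2961 to 3808 (log2 fold change -0.07, adjusted p = 0.557).

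A glucocorticoid response element, taken as the half-sites GNACA and TGTNC 3 bases apart, which read the same on both strands, was looked for in RefSeq promoter windows of GRCm38.p6, 250 bases before to 50 after a start. These starts are RefSeq's and can differ from the gene positions given here, which come from GENCODE. The element occurred in 0.475% of all 32851 windows and in 0.537% of the 27025 genes with a window. Of the 27 list members with a window 3 held it, Sgk1 (in 1 of its 6 windows), Mt1 and Map3k6. The 250 bases before the start of Map3k6, which rose from a median of 76.8 to 157 reads, are shown with the match in capitals (chr4:133240568-133240817, plus strand).
Map3k6: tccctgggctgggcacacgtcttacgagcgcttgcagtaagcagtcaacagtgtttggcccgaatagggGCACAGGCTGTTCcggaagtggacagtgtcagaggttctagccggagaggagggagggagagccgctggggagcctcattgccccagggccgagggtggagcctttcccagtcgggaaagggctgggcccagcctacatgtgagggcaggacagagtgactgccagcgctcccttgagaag

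A second set of genes that rose codes for chaperones of the endoplasmic reticulum (ER) and sensors of unfolded protein, genes that cells induce when secretory proteins misfold. Of 25 tested, 10 rose and none fell, against 2.6% and 2.08% of all genes. Of the 25, 24 had a positive log2 fold change, with a median of 0.15. In HT 18 of the same 25 rose and none fell, against 4.5% and 4.21% of all genes, with a median of 0.24. Hspa5, the ER chaperone BiP, lay between 6417 and 11412 with a median of 8368 under lithium and between 5724 and 7724 with a median of 6796 under vehicle (chromosome 2, 34771970 to 34777547, plus strand). The ranges overlapped and 9 of 10 lithium libraries exceeded the vehicle mean (log2 fold change 0.31 ± 0.08, adjusted p = 0.0269). In HT the log2 fold change was 0.49 (adjusted p = 0.00269). The WT call was lost without lithium male replicate 4, vehicle male replicate 3 or vehicle male replicate 4 (adjusted p 0.0504, 0.0556 and 0.0509).

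Sdf2l1, a component of BiP complexes, rose with a log2 fold change of 0.44 (medians 350.4 and 268, adjusted p = 0.00962), and Manf, a secreted ER-resident survival factor, with 0.24 (medians 1135 and 976, adjusted p = 0.0156). Both kept their call in every fit made. Creld2 (0.27), Dnajc3, a BiP co-chaperone (0.19), and Herpud1, of ER-associated degradation (0.17), kept it without any 1 library and lost it without both libraries that stand apart (adjusted p 0.0575, 0.051 and 0.0598). Dnajb11 (0.15) and the sensor Atf6 (0.21) lost their calls without any 1 of 2 and of 5 libraries. The list also holds the stress factors Atf4 and Ddit3, which are among the 10. The lectin chaperones and the abundant Hsp90b1 were not called, with log2 fold changes of 0.13 for Calr, 0.03 for Canx and 0.12 for Hsp90b1. The count of 10 became 3 without both libraries that stand apart, 4 with the oligodendrocyte score as a covariate and 6 with depth as a covariate.

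An ER stress element, taken as the boxes CCAAT and CCACG 9 bases apart on either strand, was found in 0.119% of all promoter windows and 0.137% of genes with a window. It lay in 8 of the 22 members with a window (Hspa5, Hsp90b1, Pdia6, Calr, Canx, Dnajc3, Creld2 and Syvn1), of which Hspa5, Dnajc3 and Creld2 passed the test in WT. Dnajc3 and Creld2 are shown because they carry the match on opposite strands, in capitals, within the 250 bases before their RefSeq starts (chr14:118937682-118937931 and chr15:88819396-88819645, both plus strand).
Dnajc3: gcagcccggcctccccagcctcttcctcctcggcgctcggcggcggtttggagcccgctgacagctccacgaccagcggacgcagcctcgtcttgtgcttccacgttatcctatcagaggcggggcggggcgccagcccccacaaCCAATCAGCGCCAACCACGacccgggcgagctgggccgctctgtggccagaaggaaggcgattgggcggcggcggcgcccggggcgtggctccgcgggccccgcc
Creld2: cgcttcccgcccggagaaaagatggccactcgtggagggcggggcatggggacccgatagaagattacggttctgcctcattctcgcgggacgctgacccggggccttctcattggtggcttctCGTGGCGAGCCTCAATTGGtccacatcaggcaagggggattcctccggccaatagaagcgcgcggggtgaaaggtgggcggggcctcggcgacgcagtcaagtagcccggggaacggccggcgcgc

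Atf4, the transcription factor of the integrated stress response, separated the treatments completely, from 3336 to 3926 reads under lithium and from 2848 to 3228 under vehicle (medians 3565 and 3006). The log2 fold change was 0.26 ± 0.03 (adjusted p = 0.000201), 0.25 in females, 0.26 in males and 0.33 in HT (adjusted p = 0.00258). Of 28 genes of this response tested, 4 rose and none fell, against 2.6% and 2.08% of all genes, with a median of 0.08. Mthfd2, a mitochondrial folate enzyme that Atf4 is known to induce, rose from a median of 121 to 174 reads (log2 fold change 0.44, adjusted p = 0.00251). The other members called were Cars, a cysteinyl-tRNA synthetase (0.13), and Ddit3, the factor CHOP (0.18), lost without any 1 of 10 and of 12 libraries. The count was 2 without any 1 of lithium female replicate 1, lithium male replicates 2 and 3, vehicle female replicate 4 and vehicle male replicates 1, 3 and 5. Cytosolic heat shock genes gave 4 rises and no fall among 22, led by Hspa1b, an inducible HSP70 (0.51, adjusted p = 0.0105), and Hspb1, the small heat shock protein HSP27 (0.45, adjusted p = 0.0158, and 0.0552 with the oligodendrocyte score as a covariate). In HT those 2 were 0.80 and 0.94. Hspa1b and its neighbour Hspa1a (0.24, adjusted p = 0.264) are near-identical copies, so reads may have been divided between them.

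Genes that neuronal activity is known to induce fall into a slow and a rapid class. Of 30 late-response genes, which code for secreted or synaptic effectors, 6 rose and none fell, against 2.6% and 2.08% of all genes. Of the 30, 25 were positive, with a median of 0.15. Of 30 rapid immediate early genes, which are mostly transcription factors, 1 rose and none fell, with a median of -0.05. Bdnf ranged from 1071 to 1403 with a median of 1184 under lithium and from 748 to 991 with a median of 905 under vehicle (chromosome 2, 109674700 to 109727007, plus strand). No lithium library reached down into the vehicle range, and the log2 fold change was 0.43 ± 0.05 (adjusted p = 0.000302), 0.39 in females, 0.47 in males and 0.50 in HT (adjusted p = 0.0016).

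Vgf, a neuropeptide precursor that BDNF induces, ranged from 5477 to 7971 against 4099 to 5629 (medians 6134 and 4500.0, log2 fold change 0.45, adjusted p = 0.000965). Homer1, a postsynaptic scaffold whose short form is activity-induced, ranged from 6467 to 10698 against 5326 to 7516 (medians 8332 and 6151, 0.45, adjusted p = 0.00123). In both the highest vehicle libraries reached into the lithium range, and all 10 lithium libraries exceeded the vehicle mean. Ptgs2, the cyclooxygenase COX-2 (0.30), Nptx2, a synaptic pentraxin (0.40), and Pcsk1, a prohormone convertase (0.27), also rose, with adjusted p between 0.00275 and 0.00718. All 6 kept their call in every fit made, and the count became 11 with the olfactory bulb score as a covariate. In HT 10 of the 30 rose and none fell, against 4.5% and 4.21% of all genes.

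By contrast the rapid genes Fos, Arc, Npas4 and Egr1 overlapped widely. Fos ranged from 604 to 1305 under lithium and from 715 to 1809.9 under vehicle (log2 fold change -0.21 ± 0.16, adjusted p = 0.513), and Arc from 2332 to 8258 and from 3409 to 8364 (0.06 ± 0.17, adjusted p = 0.886). The values for Npas4 and Egr1 were -0.17 ± 0.22 and -0.05 ± 0.08. The standard errors of Fos, Arc and Npas4 were well above that of Bdnf. The single rapid gene that rose, Ier5 (0.25, adjusted p = 0.0364), lost its call without any 1 of 10 libraries.

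Of the 21 late-response genes with a promoter window, 3 held a full cyclic AMP response element, TGACGTCA, against 2.03% of all genes with a window. They were Pcsk1, Scg2 and Plk2. Pcsk1, the only one of them called, is shown with the match in capitals (chr13:75089607-75089856, plus strand).
Pcsk1: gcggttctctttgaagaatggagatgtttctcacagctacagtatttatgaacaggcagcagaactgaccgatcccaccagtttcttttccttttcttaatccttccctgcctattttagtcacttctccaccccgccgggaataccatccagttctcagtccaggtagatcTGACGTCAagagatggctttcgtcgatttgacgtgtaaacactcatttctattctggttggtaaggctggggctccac

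Of 15 neurotrophins and receptors tested, 3 rose (Bdnf, Vgf and Ntrk3) and none fell, against 2.6% and 2.08% of all genes. The median of the list was -0.05. Ntrk3, the receptor of neurotrophin-3, had a log2 fold change of 0.16 and lost its call without any 1 of 15 libraries.

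**Figure D2:**
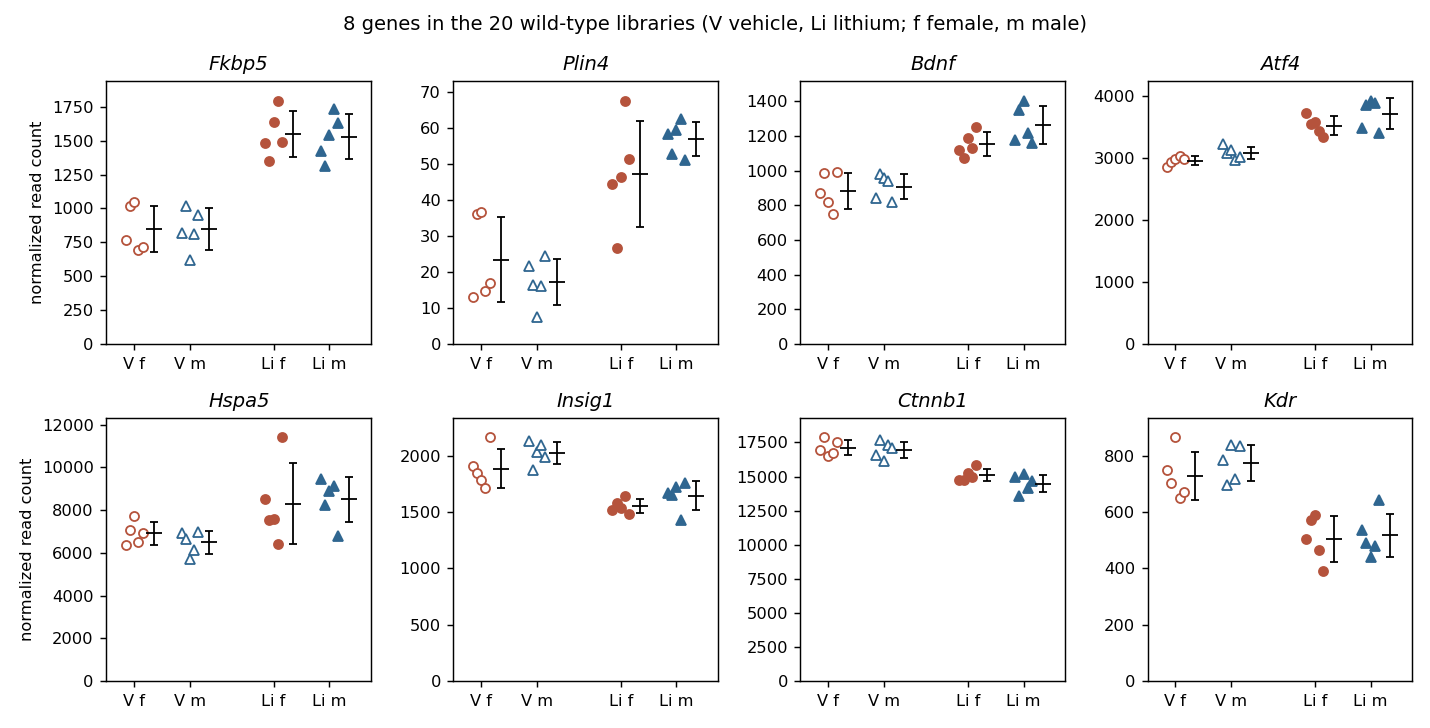
Normalized read counts of 8 genes in each of the 20 WT libraries on linear axes from 0, with filled symbols for lithium, open for vehicle, circles for females, triangles for males, and bars for the group mean and SD (n = 5). The lithium libraries lie wholly above the vehicle libraries for Fkbp5, Bdnf and Atf4 and wholly below them for Ctnnb1 and Kdr.

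The list with the most falls held genes of cholesterol synthesis and uptake, which the factor SREBP-2 drives when membrane sterol is low. None of 34 members rose and 14 fell, against 2.6% and 2.08% of all genes. Of the 34, 30 were negative, and the median was -0.13. Insig1, which holds SREBP in the ER and is itself a target, ranged from 1429.7 to 1759 under lithium and from 1710.3 to 2165 under vehicle (medians 1611 and 1949; chromosome 5, 28071363 to 28078662, plus strand). The 2 ranges overlapped at their ends only, and it fell by 0.29 on the log2 scale (SE 0.04, adjusted p = 0.000933), with -0.32 in HT (adjusted p = 0.00275).

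The fall ran along the pathway. Srebf2, the factor itself, had a log2 fold change of -0.27, Hmgcs1, the synthase of the first committed intermediate, -0.27, Mvd -0.34, Idi1 -0.27 and Sqle, squalene epoxidase, -0.25. Stard4, a sterol carrier, was at -0.30. For these 6 the adjusted p lay between 0.0021 and 0.00571, and with Insig1 they kept their call in every fit made. Lss, lanosterol synthase, showed a small but complete separation, 1069.9 to 1263 against 1269 to 1355 (-0.14, adjusted p = 0.0142, and 0.0677 with depth as a covariate). Mvk (-0.25), Fdft1 (-0.22) and Dhcr7 (-0.21) also fell; with the oligodendrocyte score as a covariate they were at -0.21, -0.19 and -0.15 and narrowly missed the call (adjusted p = 0.0509, 0.0554 and 0.0574), and Cyp51 (-0.15) lost its call without any 1 of 11 libraries. Myelin-forming cells make much cholesterol in a brain of this age, and 12 of 12 oligodendrocyte markers had negative log2 fold changes with none called (Mbp -0.30 ± 0.15). Their summed level was 57805 to 144713 under lithium and 74423 to 186452 under vehicle. With the oligodendrocyte score as a covariate 10 of the 34 sterol genes fell, and with depth as a covariate also 10. A sterol regulatory element, taken as an exact run of bases on either strand, was looked for in the same promoter windows. It occurred in 0.0999% of genes with a window and in 0 of the 23 list members with a window.

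**Figure D3:**
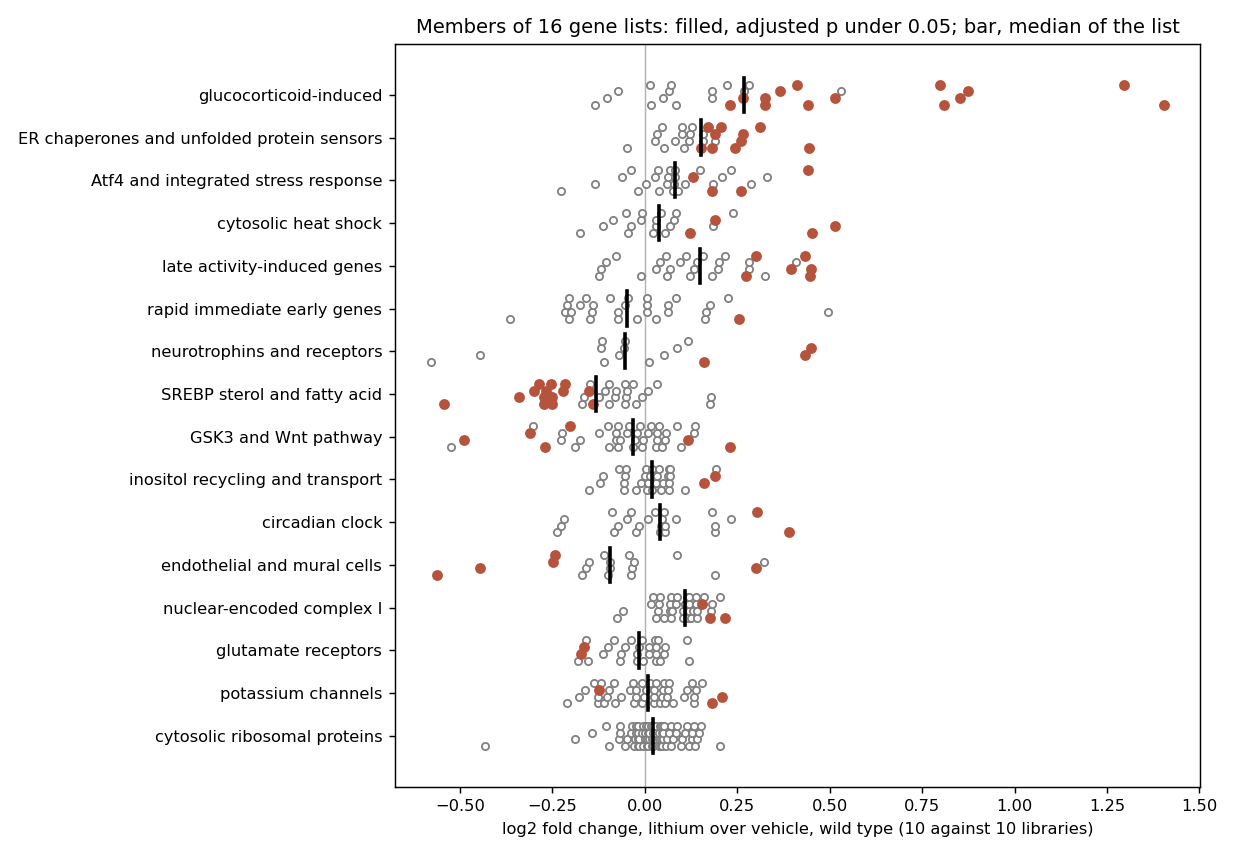
Log2 fold changes of lithium over vehicle in WT for the tested members of 16 gene lists, 1 point a gene, filled where the adjusted p was under 0.05, with a bar at the median of each list. Glucocorticoid-induced, ER chaperone and late activity genes lie mostly to the right of 0 and SREBP genes mostly to the left.

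Of the enzymes that lithium is known to inhibit, Impa1 alone was called. Gsk3a ranged from 5305 to 6637 under lithium and from 5397 to 6827 under vehicle (log2 fold change -0.03 ± 0.04, adjusted p = 0.801), and Gsk3b from 5771 to 6830.4 and from 5758 to 6778 (-0.03 ± 0.03, adjusted p = 0.656). Ctnnb1, which codes for beta-catenin, was lower in every lithium library than in any vehicle library, 13535 to 15832 with a median of 14857 against 16118 to 17884 with a median of 17043 (chromosome 9, 120929216 to 120960507, plus strand). It fell by 0.20 (SE 0.03, adjusted p = 0.000781), with -0.18 in females, -0.23 in males and -0.21 in HT (adjusted p = 0.00154). Of 41 genes of GSK3 and Wnt signalling 2 rose and 4 fell, against 2.6% and 2.08% of all genes, with a median of -0.03. Besides Ctnnb1 these were Apc2, of the beta-catenin destruction complex (-0.31, adjusted p = 0.0021), Lef1, a transcription partner of beta-catenin (-0.49, adjusted p = 0.00498), and Sfrp1, a secreted Wnt antagonist (-0.27, adjusted p = 0.0222, and 0.06 without both libraries that stand apart). Frat1, which binds GSK3 and keeps it from axin and is not on this list, fell by 0.47 (adjusted p = 0.000959), from a median of 215 to 164 reads, and by 0.63 in HT (adjusted p = 0.00536). The 2 that rose, Dvl1 (0.12) and the receptor Fzd1 (0.23), lost their calls without any 1 of 13 and of 14 libraries. Of 16 Wnt target genes none rose and 1, Lef1, fell. Lef1 is also the one called of 7 thalamus markers, of which 5 were negative with a median of -0.12. The 7 summed to between 2979 and 7193 reads under lithium and between 3602 and 7614 under vehicle, with no member at 0. Their mean centred level was -0.27 in lithium males against 0.12 in vehicle males, without overlap, and 0.08 against 0.06 in females, and their part in the fall of Lef1 was not tested. Axin2, the target most used as a reporter, was at -0.07 ± 0.04 (adjusted p = 0.427).

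In inositol metabolism 2 of 32 genes rose and none fell, against 2.6% and 2.08% of all genes. Impa1, the main inositol monophosphatase, ranged from 1953 to 2232 against 1582 to 2008 (medians 2082 and 1822), a log2 fold change of 0.19 ± 0.04 (adjusted p = 0.013) and 0.16 in HT (adjusted p = 0.0478). All 10 lithium libraries exceeded the vehicle mean, and the call was lost with depth as a covariate (adjusted p = 0.0731). Ipmk, which phosphorylates inositol polyphosphates, was at 0.16 (adjusted p = 0.0216, and 0.0563 without both libraries that stand apart). The other lithium-sensitive phosphatases were not called, with log2 fold changes of -0.15 ± 0.08 for Impa2, 0.00 ± 0.04 for Inpp1 and 0.06 ± 0.04 for Bpnt1. Slc5a3, the sodium and myo-inositol cotransporter, missed the threshold in WT at 0.19 ± 0.06 (adjusted p = 0.0516) and passed it in HT at 0.49 (adjusted p = 0.00498). The difference between the genotypes was not called (-0.30, adjusted p = 0.959). Isyna1, which makes inositol anew, was at 0.03, and Nfat5, the factor of the response to hypertonicity, at -0.11, neither called. Of 23 genes of osmotic and ion transport 2 rose, Slc38a2 and Sgk1, and none fell, against 2.6% and 2.08% of all genes. The median of that list was -0.02, and its count of rises was 0 with depth as a covariate and 0 in a fit of all 60 libraries. Among 27 genes of cyclic AMP, Akt and protein kinase C signalling none rose and 2 fell. They were Akt1 (-0.12, adjusted p = 0.0147, and 0.0507 with depth as a covariate) and Marcks, a kinase C substrate (-0.24, adjusted p = 0.0473), the latter lost without any 1 of 14 libraries.

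The genes with the smallest p beyond these lists were Mapk4, an atypical MAP kinase (2155 to 2577 reads against 1652 to 2128, log2 fold change 0.32 ± 0.04, adjusted p = 0.000201), and Pip4k2c, a phosphoinositide kinase (4186 to 5273 against 3645 to 4110.4, 0.27 ± 0.04, adjusted p = 0.000437). Neither pair of ranges overlapped, and in HT the log2 fold changes were 0.33 and 0.19. Klf16, a transcription factor, was among the 5 falls of smallest p (-0.30, adjusted p = 0.000933).

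By size, the largest rise among genes with a mean of at least 50 reads was that of Etnppl, an astrocyte enzyme that breaks down phosphoethanolamine. It ranged from 459 to 1168 with a median of 776 under lithium and from 168 to 729 with a median of 363 under vehicle (0.94 ± 0.15, adjusted p = 0.00189), while in HT it was 0.53 and not called (adjusted p = 0.139). Plekhg4, a guanine nucleotide exchange factor, rose from 54.3 to 99.8 under vehicle to 101 to 159.9 without overlap (0.80, adjusted p = 0.000933; HT 1.09). Pkp2, a desmosomal plakophilin (0.65), Smim3 (0.59), Car12, a carbonic anhydrase (0.56), Srarp (0.56) and Esrrb, an orphan nuclear receptor (0.52), kept their call in every fit made. Of these 5, Pkp2, Smim3 and Srarp also rose in HT. Esrrb was at 0.05 there (adjusted p = 0.867), with a difference between genotypes of 0.47 (unadjusted p = 0.0074, adjusted p = 0.959). Paqr5, a membrane progestin receptor (0.57), and Clec18a (0.56) lost their calls with the oligodendrocyte score as a covariate (adjusted p = 0.0578 and 0.0605), and Fam83d (0.52) without any 1 of 14 libraries.

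Kdr, the main receptor for VEGF on endothelium, was among the 15 largest falls. It ranged from 391 to 642 with a median of 496 under lithium and from 650.2 to 866 with a median of 733 under vehicle (chromosome 5, 75932827 to 75978458, minus strand). The groups did not overlap, and it fell by 0.56 (SE 0.08, adjusted p = 0.000437), -0.54 in females and -0.59 in males. Cldn5, the tight junction protein of the blood-brain barrier, ranged from 646 to 987 against 862 to 1292 (medians 807 and 1128, -0.44 ± 0.08, adjusted p = 0.0034). Both kept their call in every fit made. Aplnr, the apelin receptor of sprouting endothelium, had the largest fall of all called genes above 50 reads, from a median of 93.2 to 42.4 reads (-1.08 ± 0.25, adjusted p = 0.0151), and Cd93, another endothelial receptor, was at -0.50 (adjusted p = 0.012, and 0.0666 in a fit of all 60 libraries). Nes, the filament protein of progenitors and young endothelium, fell by 0.55 (adjusted p = 0.00621), and Cd248, of pericytes and fibroblasts, was at -0.52 (adjusted p = 0.0136, and 0.0833 with depth as a covariate). Aplnr, Cd93, Nes and Cd248 are not on the vessel list described next.

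Of 19 endothelial and mural markers fixed as a list, 4 fell and 1 rose, against 2.08% and 2.6% of all genes, with a median of -0.09. Besides Kdr and Cldn5 these were Cdh5 (-0.24, adjusted p = 0.0415) and the pericyte receptor Pdgfrb (-0.25, adjusted p = 0.0339), each lost without any 1 of 14 and of 10 libraries, so that the count was 2 in 9 of the 20 fits without 1 library. Those 9 left out lithium female replicate 2, lithium male replicates 2, 3 and 4, vehicle female replicates 3 and 4, or vehicle male replicates 1, 4 and 5. The marker that rose was Ly6c1 (0.30, adjusted p = 0.0228, and 0.0572 without both libraries that stand apart). The VEGF receptor Flt1 (-0.04), Pecam1 (-0.17) and Tek (-0.15) were not called. The summed level of the 19 was 23079.8 to 28019 reads under lithium and 25772 to 29423 under vehicle.

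In HT 0 of the 19 markers fell and 2 rose, against 4.21% and 4.5% of all genes. Kdr was -0.13 there (adjusted p = 0.437), Cldn5 -0.05, Cd93 0.09 and Nes -0.02. The WT minus HT differences had unadjusted p of 0.00148 for Kdr, 0.0119 for Cldn5, 0.00235 for Cd93 and 0.0114 for Nes, and none passed adjustment over all genes, so a difference between genotypes was not shown. Of the other large falls, Casq2, a calcium-binding protein of the reticulum (-0.75), Rnf122, a ubiquitin ligase (-0.56), and Lmcd1, a transcriptional co-regulator (-0.51), kept their call in every fit made, with Rnf122 at -0.32 with the oligodendrocyte score as a covariate. Abcc6 (-0.52), Pigz (-0.52) and Slc22a3, a transporter of monoamines (-0.49), kept it without any 1 library but not with depth as a covariate (adjusted p = 0.0512, 0.0507 and 0.151), and Nipal4 (-0.77) and Qrfpr (-0.59) lost it without any 1 of 10 and of 12 libraries. Nipal4 was at -0.44 with the oligodendrocyte score as a covariate (adjusted p = 0.0569).

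**Figure D4:**
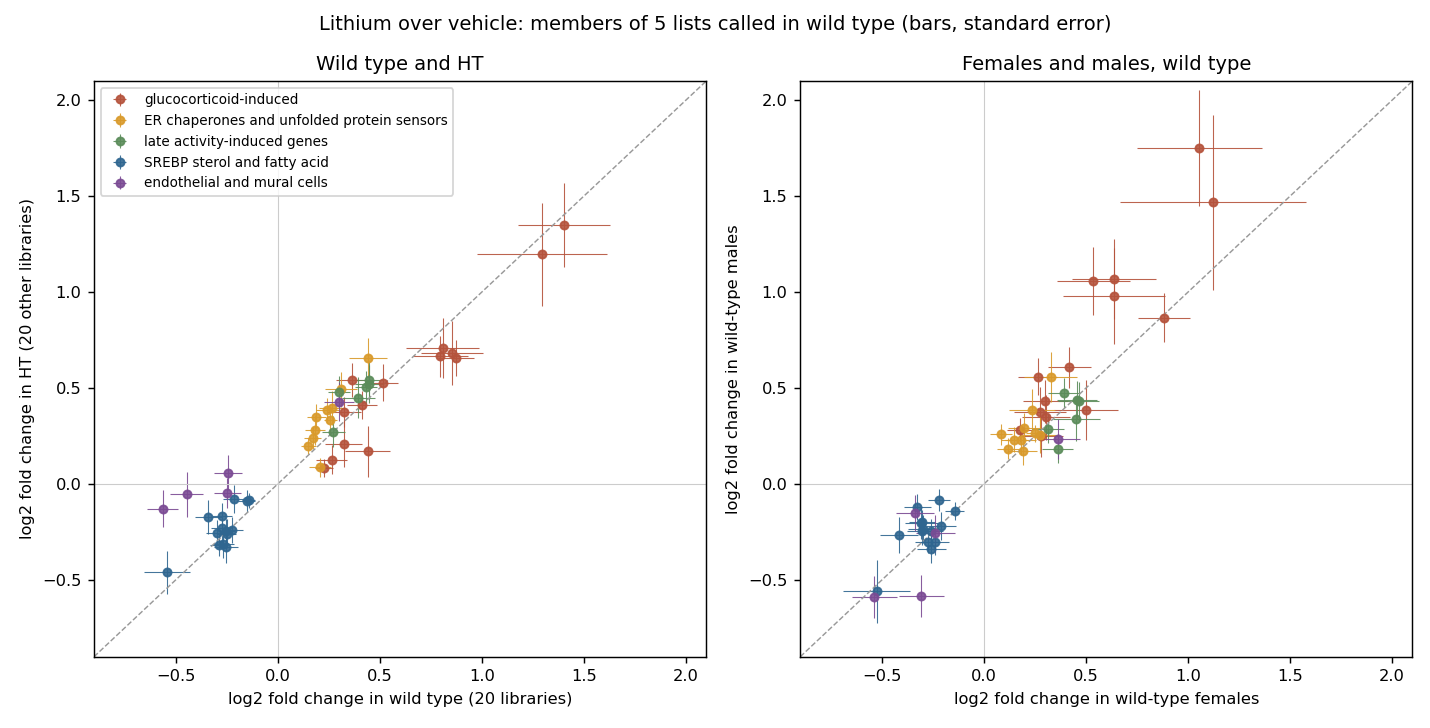
Log2 fold changes of lithium over vehicle, with standard errors, for the members of 5 lists called in WT, in WT against HT (left) and in WT females against WT males (right); the dashed line marks equal values. All points have the same sign in both sexes, and on the left the 4 endothelial genes that fell in WT lie above the line, with HT values near 0.

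Of 25 clock genes 2 rose and none fell, against 2.6% and 2.08% of all genes. Per2 ranged from 1438 to 2079 against 1082 to 1711 (medians 1741 and 1236, 0.39 ± 0.08, adjusted p = 0.00852), and Cry1, another repressor of the clock, was at 0.30 (adjusted p = 0.0128). Neither Arntl, which codes for the activator BMAL1 (-0.08 ± 0.07), nor Nr1d1, a repressor in antiphase to it (-0.22 ± 0.08), was called. The time of day of collection was not given in the labels used here. The rise of Per2 was 0.12 in females (adjusted p = 0.503) and 0.66 in males (adjusted p = 0.00128), and the difference between the sexes was not called (adjusted p = 0.115).

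Most synaptic and housekeeping lists changed in few members, where 2.6% of all genes rose and 2.08% fell. Among glutamate receptors 0 of 29 rose and 2 fell, Grin3a (-0.17, adjusted p = 0.0124) and Grik2 (-0.16, adjusted p = 0.0244, and 0.0704 without both libraries that stand apart). Of 46 potassium channels 2 rose and 1 fell, with Kcnn2, a calcium-activated channel, the most secure (0.21, adjusted p = 0.00622; HT 0.29). Of 27 monoamine receptors and 77 cytosolic ribosomal protein genes none was called. Nuclear-encoded subunits of respiratory complex I were positive in 35 of 37, with a median of 0.11, but only 3 rose by the test, led by Ndufs1 (0.16, adjusted p = 0.00882, and 0.0553 in a fit of all 60 libraries). That count was 7 without lithium male replicate 1, and 1 without any 1 of lithium female replicates 2 and 4, lithium male replicate 3 and vehicle male replicates 3 and 4. None of the 13 mitochondrially encoded genes was called. Of 21 HECT ligases 2 fell, Hectd4 (-0.29, adjusted p = 0.00334) and Hecw2 (-0.30, adjusted p = 0.0146). Dio2, the deiodinase that makes active thyroid hormone in the brain, was at 0.20 in WT (adjusted p = 0.0297, lost without any 1 of 6 libraries) and 0.63 in HT (adjusted p = 0.0016).

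The effect of lithium was also estimated for each sex, from 1 fit of 4 group means to the 20 libraries with a shared spread. Lithium changed 267 genes in females (1.5%) and 420 in males (2.36%), of which 28 rose and 10 fell in both. All 833 genes called over both sexes had the same sign in each sex, a property that a call in the joint fit favours. The difference between the sexes passed the test for 0 genes by limma and by edgeR, with 2560 at an unadjusted p under 0.05 and a smallest adjusted p of 0.115, and for 137 genes by DESeq2. Across the 13707 genes with a mean of at least 50 reads, the fold changes of the sexes were hardly related (Pearson's r = -0.0927, across genes, which are not independent replicates), against 0.632 for WT and HT over both sexes. The olfactory bulb markers moved apart, with a median log2 fold change of 0.76 in females and -1.50 in males, where 4 of 14 fell, against 1.04% of all genes in males (1.31% rose). Doc2g, a marker of bulb output neurons, ranged from 139 to 2966 reads over the lithium libraries and from 127 to 2644 over the vehicle libraries. In males the summary score of the bulb markers did not overlap between the treatments, so the score and the treatment cannot be told apart there. With that score as a covariate the count over both sexes was 1253, which held all 833. The count in males alone was 1 with it, in place of 420.

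These single-sex counts were unstable. With depth as a covariate no gene was called in females, where depth did not overlap between the treatments, so depth and treatment cannot be told apart. Leaving out 1 of the 10 libraries of a sex gave 17 to 894 calls in females and 18 to 610 in males, and moved them by over 1.5 times for 9 libraries in each sex. In females the counts were 70, 17, 48, 140 and 894 without lithium replicates 1 to 5 and 86, 113, 746 and 127 without vehicle replicates 1, 2, 4 and 5. In males they were 76, 88, 73 and 210 without lithium replicates 2 to 5 and 251, 100, 18, 62 and 96 without vehicle replicates 1 to 5. The interaction gave 742 calls without lithium female replicate 5, 881 without vehicle female replicate 4 and 1 without vehicle female replicate 1. Fkbp5, Atf4, Bdnf, Vgf, Homer1, Insig1, Ctnnb1 and Kdr passed the test for each sex. Their female and male log2 fold changes were 0.46 and 0.44 for Vgf, 0.47 and 0.43 for Homer1, and -0.27 and -0.30 for Insig1. Of the genes named for the smallest p in 1 sex, Zmiz2, a transcriptional co-activator, fell by 0.56 in females (adjusted p = 0.00258) and had a value of -0.17 in males (adjusted p = 0.249). Rheb, the GTPase that activates mTORC1, rose in females (0.37, adjusted p = 0.00258) with 0.17 in males, and Wipf3, an actin regulator, in males (0.41, adjusted p = 0.00128) with 0.22 in females (adjusted p = 0.0414).

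Lithium and fluoxetine were set against each other directly in 10 and 10 WT libraries, and 1182 genes differed (6.64%), 666 higher under lithium (3.74%) and 516 lower (2.9%). Fluoxetine males held 32.65 to 36.52 M against 25.14 to 32.37 M in lithium males, without overlap, so depth and drug cannot be told apart there. Females held 32.67 to 35.95 M under fluoxetine and 33.92 to 35.86 M under lithium. Depth was not fitted as a covariate in this test. The test shares its lithium libraries with the comparison above, so only values of lists and genes already described are given, side by side. Bdnf was higher under lithium than under fluoxetine (log2 difference 0.38, adjusted p = 0.00138), as were Atf4 (0.33, adjusted p = 3.89e-05), Vgf (0.38, adjusted p = 0.00764), Fkbp5 (0.39, adjusted p = 0.0272) and Impa1 (0.23, adjusted p = 0.00192). Ctnnb1 (-0.23, adjusted p = 0.00113), Frat1 (-0.46, adjusted p = 0.00622) and Kdr (-0.46, adjusted p = 0.0075) were lower. Of the 34 sterol genes, 1 differed, Scd1, a fatty acid desaturase that was higher under lithium (0.30, adjusted p = 0.0378) and was named after its value was seen; none of the 14 that fell against vehicle was called between the drugs, with differences of 0.01 for Insig1 and -0.01 for Sqle, and the median of the list was 0.01. Insig1 ranged from 1425 to 1804 under fluoxetine (median 1582), which overlaps its lithium range. Zbtb16 (0.06, adjusted p = 0.744), Homer1 (0.11, adjusted p = 0.553) and Hspa5 (0.11, adjusted p = 0.455) were not called between the drugs either. Of 30 rapid immediate early genes, 12 were higher under lithium than under fluoxetine and 1 lower, with a median of 0.28. Arc was higher by 1.14 (adjusted p = 0.0182; 1295 to 4777 reads under fluoxetine, median 2735) and Fos by 0.54 (adjusted p = 0.0224). The count of 1182 became 3012 without fluoxetine male replicate 2, and 781, 733 and 722 without fluoxetine female replicate 5, fluoxetine male replicate 5 and lithium female replicate 1.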

How the data were processed

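The deposited table holds normalized counts, a signal per gene: per the submitters' processing notes, reads were quantified with Salmon 0.11.2 against GRCm38 and handled in R 3.6.0 with DESeq2 1.19.11. The annotation and strand setting are not given in the sources used here; libraries were stranded mRNA, per the labels' protocols. Dividing each column by its smallest step gave whole reads for 100% of values (tolerance 0.01), with size factors from 0.85 to 1.25. In 2 HT columns, which enter the HT and genotype fits, the step lies so close to 1 that whole reads could not be told from rounding. No pair of libraries held identical values.

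Values were analysed as log2(value + 1), so fold changes of low genes are understated. A gene was tested where 5 or more of the 60 libraries reached 10 normalized counts (17804 of 18088). The main test was limma 3.58.1 with a mean-variance trend and sex as a block on the 20 WT libraries (17 residual degrees of freedom), with Benjamini-Hochberg adjustment over all genes tested. Single sexes and their difference came from a fit of 4 group means, HT from the same fit on 20 other libraries, and the genotype difference from 40 libraries. In R 4.3.3, edgeR 4.0.16 (quasi-likelihood test) and DESeq2 1.42.0 were run on the recovered reads as alternatives. The main test was checked on simulated data.

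Genes were named by a rule: the 15 largest rises and falls with a mean of at least 50, the 5 smallest p each way, up to 4 called members a list by smallest p, the enzymes that lithium inhibits, and the 8 smallest p called in each sex. Called list members beyond 4, Nr3c1, Nr3c2 and genes given as not called (Fos, Arc, Axin2, Calr, Flt1 and the like) were named after their values were seen. The comparison and the gene lists were chosen with earlier results of these data known. Other settings covered normalization, filters, pseudocounts, covariates, weights, a replicate block and leaving out each library. Some list members are not reported here by name.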

Additional observations from a re-analysis of the deposited data

Results flagged for a closer look

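In 31 of 540 groups of 5 libraries (131 genes named in the text and 4 library measures, in 4 groups each), the highest or lowest library lay apart from the other 4 by Dixon's criterion. Chance alone gives about 1 in 20 such groups. The normalized read counts below are those of the library that lay apart, with the range of the other 4. Their part in the results was measured by leaving out each library in turn. Lithium female replicate 5 stood out for Atf6 at 3799 (3115 to 3301), Cdh5 at 352.1 (496.4 to 546), Fzd1 at 377.8 (487.4 to 525.4) and Grik2 at 1661 (1790.0 to 1819). The same library had Hectd4 at 10640.0 (8044 to 8498), Manf at 1415 (1007 to 1104), Ndufs1 at 4587 (4082 to 4181) and Pecam1 at 495.1 (624.9 to 674.3). It also had Pip4k2c at 4802 (4186 to 4329), Stard4 at 865.2 (753.6 to 763.3) and the endothelial and mural marker score (mean centred log2 level) at -0.2894 (-0.0104 to 0.0529). Lithium male replicate 5 stood out for Arc at 4610.0 (7766 to 8258), Casq2 at 79.4 (44 to 47.9), Dnajc3 at 1603 (1911 to 1986) and Hecw2 at 2391 (1664 to 1785). Vehicle male replicate 2 stood out for Nptx2 at 1848 (1270.0 to 1422), Qrfpr at 88.85 (54.98 to 61.9) and Slc5a3 at 829.6 (650.7 to 700.2). Lithium female replicate 4 stood out for Hmgcs1 at 10880.0 (8289 to 8679) and Paqr5 at 160.9 (127.4 to 137). Lithium male replicate 2 stood out for Etnppl at 742.9 (459.1 to 520.7) and Flt1 at 1829 (1621 to 1663). Vehicle female replicate 4 stood out for Herpud1 at 1108 (1210.0 to 1249) and Npas4 at 1491 (545 to 693.1). Vehicle male replicate 1 stood out for Axin2 at 851.6 (778.6 to 791.8) and Pecam1 at 640.3 (689.6 to 707.9). Vehicle male replicate 5 stood out for Cdh5 at 632.1 (536 to 558.5) and Sqle at 1994 (2218 to 2255). Vehicle female replicate 2 stood out for Pip4k2c at 4110.0 (3645 to 3737). Vehicle male replicate 3 stood out for Mapk4 at 1652 (1827 to 1885). Vehicle male replicate 4 stood out for Fam83d at 33.29 (46.06 to 49.59).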

How the results depend on the processing

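Of 128 named genes called in WT, 60 kept their call under all 15 alternative settings and in all 20 fits without 1 library, 95 kept it in the latter, and no value changed sign. The calls lost numbered 41 with depth and 41 with the oligodendrocyte score as a covariate, 33 without both libraries that stand apart, 27 with a replicate block (among them Cry1, Grin3a and Hecw2) and 21 in a fit of all 60 libraries. The marker covariates and the removal of both libraries were chosen after seeing the data. The WT count of 833 became 1268 with DESeq2, 1253 with the olfactory bulb score, 535 with the oligodendrocyte score and 539 with the replicate block, and between 564 and 906 without 1 library. The female count of 267 became 775 with DESeq2, 0 with depth, 0 with the replicate block, 1011 without both libraries that stand apart and 145 in the fit of all 60 libraries, and 17 to 894 without 1 library. The male count of 420 became 882 with DESeq2, 1 with the olfactory bulb score and 156 without both libraries, and 18 to 610 without 1 library. In females depth, and in males the bulb score, separated the treatments completely. In the single-sex fits the slope of each covariate came from the spread within the 4 groups of libraries. In the fit over both sexes it also drew on how differently the covariate moved with treatment in females and males. Whether the calls lost with these covariates follow the covariate or the treatment was not tested. The interaction count of 0 became 137 with DESeq2 and 447 without both libraries, and 0 to 881 without 1 library. In HT the count of 1551 became 2595 in the fit of all 60 libraries and 1059 to 1990 without 1 library, and the lithium and fluoxetine count of 1182 became 722 to 3012 without 1 library. The cause of these shifts was not tested. Replicate numbers did not pair the libraries: over 10 same-numbered lithium and vehicle pairs the correlation of deviations ran from -0.348 to 0.33, was above 0.1 for 1 pair, and 1 library correlated best with its own number. The median standard error of 0.069 on the log2 scale sets the size of change that this depth and spread could show.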
